A study of Mus musculus with 4 samples.

Results

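The genes described are 10 immediate early transcription factor genes, Fos, Fosb, Jun, Junb, Egr1, Egr2, Egr3, Nr4a1, Nr4a3 and Atf3, taken by symbol from the 32285 gene rows of the count tables. All 10 symbols were found, each on 1 row. They were measured by single-cell RNA sequencing (10x 3′ v3) of cells selected from mouse brain with beads against CD11b, a surface protein of microglia and other myeloid cells. There were 4 libraries of 1 mouse each. The mice were IL6 WT (+/+) or IL6 KO (-/-), 8 to 12 weeks old at surgery, and had either sham surgery (Ctrl) or cerebrovascular injury (CVI), in which microspheres were injected into the blood and pulsed ultrasound was applied to the thinned skull. Tissue was taken with a 4 mm punch at day 6. One label places the controls 6 days after sham surgery, and the extraction protocol calls them uninjured. Mild and severe settings of the injury are both described in the labels, without saying which these mice had. The anaesthesia, the perfusion with cold buffer, the enzymatic dissociation, the removal of myelin and the bead selection are described for all groups alike. Strain and sex are not given in the labels.

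Immediate early genes are switched on within minutes of a stimulus without new protein synthesis, through kinase pathways that act on factors such as SRF and CREB. Fos and Jun proteins pair to form the AP-1 factor, Egr proteins bind DNA through zinc fingers, Nr4a proteins are orphan nuclear receptors, and Atf3 is a stress-induced factor of the ATF family. In microglia these genes are also known to respond to the dissociation of the tissue. The labels name no transcription inhibitor, and how much of each level was present in the brain and how much was added during preparation was not tested.

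Il6, the gene targeted in the knockout, was counted in all 4 libraries. It was at 10.5 (8.55 to 12.8) unique molecular identifiers (UMIs, each standing for 1 captured RNA molecule) per 1000000 (CPM) over all analysed cells of the wild-type sham library and at 4.58 (3.903 to 5.34) CPM in the injured wild-type one. In the libraries labelled knockout it was at 27.1 (24.3 to 30.1) CPM after sham surgery and 21.6 (19.8 to 23.5) CPM after injury, which is higher, not lower. The targeted exon is not named in the labels, and a 3′ count outside the deleted part checks nothing, so these libraries are called knockout-labelled below.

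After filtering, 957, 2883, 1362 and 2549 cells were analysed, naming first the wild-type mice (sham, then injury) and then the knockout-labelled mice (sham, then injury), an order kept below, with library medians of 7719 to 10033 UMIs. The wild-type sham library stands apart, since 73.7% of its barcodes were over 10% mitochondrial UMIs, against 31.9% to 40.9% in the other 3. It shared 135 barcodes with the knockout-labelled sham library, 21 of them among analysed cells, where other pairs shared at most 14 and 2. Leaving out the 54 analysed cells whose barcode occurs in 2 libraries changed none of the counts of the 10 genes past 2-fold in microglia.

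Cells were put into classes by marker genes that hold none of the 10. The microglia class had 716, 2133, 1136 and 2212 cells, and its median cell had 8, 7, 8 and 8 of the 8 microglia markers. Macrophages with both Lyz2 and Ms4a7 numbered 338 and 36 in the injured libraries but 9 and 2 in the sham ones, too few to describe there. Border macrophages, which line the brain's surfaces and vessels, numbered 64, 56, 51 and 49, and endothelial cells of the vessel wall, which came through the CD11b selection, 29, 76, 45 and 127. Classes are cut from a marker score: 125 of 2133 injured wild-type microglia (5.86%) lay within 1 marker of another class, against 0.616% to 0.978% in the other libraries. Their macrophage markers were also higher: the summed level of 8 was 617, 7281, 409 and 1999.6 CPM in microglia of the 4 libraries, and Lyz2 alone was at 524, 6239, 356 and 1741. Summed neuronal markers in microglia were at 168, 19.2, 176 and 25.2 CPM, higher in both sham libraries. Summed endothelial markers were also higher in both sham libraries, at 36.3, 17.7, 33.9 and 21.4 CPM, with Pecam1 at 22.9, 3.43, 17.6 and 5.27 and Cldn5 near 0 at 0.254, 0.462, 1.09 and 0.849 CPM. Summed neutrophil markers in microglia were at 329, 26.3, 1.18 and 11.5 CPM, highest in the wild-type sham library. The part of these marker lists in the results was not tested.

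With 1 mouse per group there is no test between groups, and no p-value is given. Levels carry exact Poisson 95% intervals, ratios exact conditional binomial ones and shares exact binomial (Clopper-Pearson) ones, and none of these covers how mice differ from each other. They are too narrow for these genes, because the UMIs are clumped in cells. The 1% of microglia with the most UMIs of a gene held 4.77% to 9.46% of the UMIs of Fos, Fosb, Jun, Junb, Egr1 and Atf3, and 7.97% to 36.7% of those of Egr2, Egr3, Nr4a1 and Nr4a3.

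Promoter sequence is shown for 5 genes that span the results: Jun, which was much lower after injury, Fos, its AP-1 partner, which moved less, Nr4a3 and Nr4a1, which were not lower, and Egr2, which differed by cell class. RefSeq (GRCm38.p6) windows were searched for 8 of the 10 genes. Egr1 and Egr3 were not among them, so the motif counts below say nothing about these genes. The 250 bases before the RefSeq start are printed 5′ to 3′ on the gene's strand, and capitals mark every match to the motifs named below. The windows are chr4:95052223-95052472 on the − strand for Jun, chr12:85473640-85473889 on the + strand for Fos, chr15:101266596-101266845 on the + strand for Nr4a1, chr4:48045055-48045304 on the + strand for Nr4a3 and chr10:67537619-67537868 on the + strand for Egr2, 1 of its 5 RefSeq windows.
Jun: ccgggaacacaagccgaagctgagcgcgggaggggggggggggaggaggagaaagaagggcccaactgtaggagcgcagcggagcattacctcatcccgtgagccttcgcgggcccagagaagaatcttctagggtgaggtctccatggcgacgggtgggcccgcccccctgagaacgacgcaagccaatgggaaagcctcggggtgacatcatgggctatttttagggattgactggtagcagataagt
Fos: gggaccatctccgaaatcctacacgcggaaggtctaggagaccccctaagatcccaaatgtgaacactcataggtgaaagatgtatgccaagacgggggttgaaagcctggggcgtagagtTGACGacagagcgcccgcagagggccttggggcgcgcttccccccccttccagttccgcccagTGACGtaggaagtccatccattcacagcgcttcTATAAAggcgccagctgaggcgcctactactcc
Nr4a1: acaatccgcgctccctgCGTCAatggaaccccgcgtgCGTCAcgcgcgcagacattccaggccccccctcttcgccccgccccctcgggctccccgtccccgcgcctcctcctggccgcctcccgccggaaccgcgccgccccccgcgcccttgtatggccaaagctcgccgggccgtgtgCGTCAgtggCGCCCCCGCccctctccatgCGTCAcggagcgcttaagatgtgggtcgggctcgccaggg
Nr4a3: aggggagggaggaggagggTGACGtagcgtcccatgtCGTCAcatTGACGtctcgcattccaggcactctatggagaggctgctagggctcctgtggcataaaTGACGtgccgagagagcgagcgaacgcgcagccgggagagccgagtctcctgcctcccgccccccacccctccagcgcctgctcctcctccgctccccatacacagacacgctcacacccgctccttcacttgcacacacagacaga
Egr2: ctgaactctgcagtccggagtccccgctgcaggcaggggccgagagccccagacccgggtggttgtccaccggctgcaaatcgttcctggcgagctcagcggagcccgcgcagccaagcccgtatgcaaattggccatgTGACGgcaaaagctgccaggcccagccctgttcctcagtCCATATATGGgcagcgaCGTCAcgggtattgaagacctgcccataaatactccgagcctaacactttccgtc
The short core of the cAMP response element, TGACG on either strand, lies 129 and 66 bases before the Fos start, 233, 213, 69 and 40 before that of Nr4a1, 231, 213, 205 and 147 before that of Nr4a3 and 111 and 55 before that of Egr2. Fos also has TATAAA on its own strand at 33 bases, Egr2 a CArG box, the letters SRF binds, at 72 bases, and Nr4a1 the Egr letters GCGNGGGCG on the other strand at 60 bases. The short core was in a window of 7 of the 8 genes, all but Jun, and in 17.8% of all 32851 RefSeq windows of this length. A gene was counted if any of its windows matched, with 12 windows over the 8 genes. The shares are per window, with no chromosome left out, so counts and shares are in unlike units. The CArG box was in 1 gene and 1.47% of windows, TATAAA in 1 and 7.59%, and GCGNGGGCG on either strand in 2 and 4.697%. The full element TGACGTCA and the AP-1 letters TGANTCA, on either strand, were in none of the 8 genes and in 1.55% and 6.75% of windows. These are matches of letters, not measured sites.

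In microglia, Jun and Egr1 were lower after injury under both genotype labels, Fos and Junb moved less, and Nr4a3 was higher. The plot of the 10 genes by library shows the sham libraries close together for Jun and Egr1 and both injured libraries below them.

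**Figure D1:**
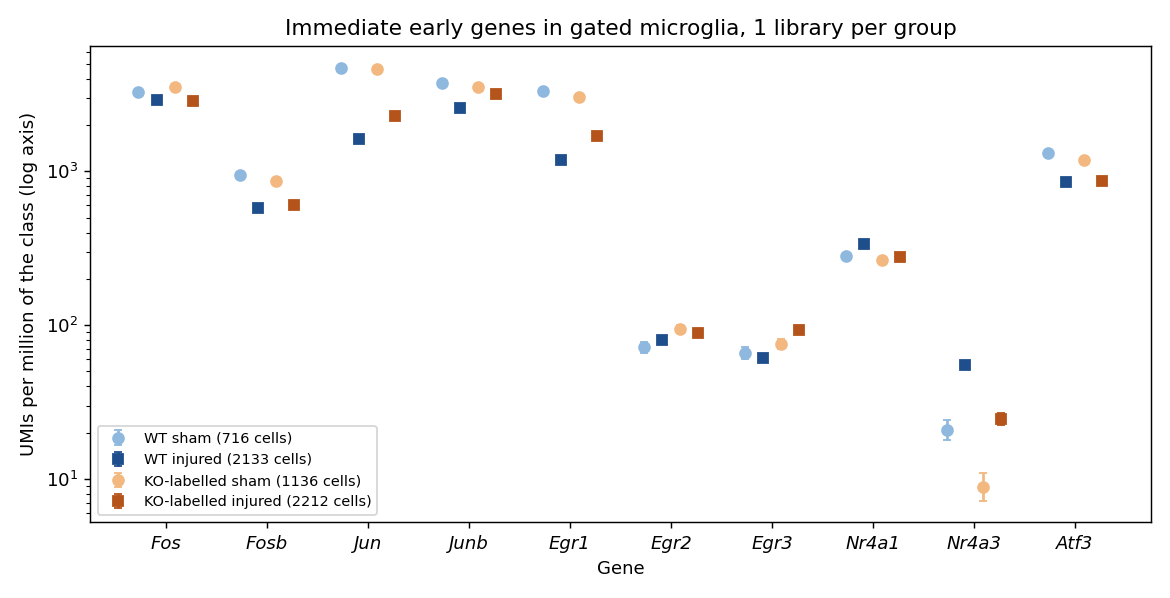
Level of each of the 10 genes in gated microglia of the 4 libraries, in CPM on a log axis, with exact Poisson 95% intervals for counting error alone. Jun lies at 4676 and 4653 in the sham libraries and at 1624 and 2273 in the injured ones, and Nr4a3 at 20.8 and 8.903 against 55.01 and 24.5.

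Jun, a core subunit of AP-1 (chromosome 4, 95049034 to 95052222, − strand, GRCm38), was at 4676 (4629 to 4724) CPM in microglia of the wild-type sham library and at 1624 (1609 to 1639.9) CPM in the injured one. Under the knockout label it was at 4653 (4613 to 4694) CPM after sham surgery and 2273 (2254 to 2293) CPM after injury. Both injured libraries were below both sham libraries. Jun was 2.88-fold (2.84 to 2.92) lower in injured than in sham wild-type microglia and 2.05-fold (2.02 to 2.07) lower under the knockout label. The median microglia held 36.5, 14, 33 and 17 Jun UMIs. After each cell was thinned to 2000 UMIs, which left out 74, 87, 108 and 131 shallower cells, a Jun UMI was found in 91.9% (89.5 to 93.9), 78.2% (76.3 to 79.97), 91.8% (89.98 to 93.4) and 81.6% (79.9 to 83.2) of microglia, and without thinning in 92.3%, 92.1%, 93.8% and 89.8%. Of the classes described, neutrophils had the least Jun, with 1, 11, 7 and 2 UMIs in 12, 32, 6 and 6 cells and 0 of 11, 2 of 5, 0 of 5 and 1 of 4 thinned cells with one, at median depths of 3172, 1495, 3320 and 2157 UMIs against 8444, 9755, 8414 and 8798 in microglia. The antisense gene Junos overlaps Jun, and the sources used here do not say whether strand was used in the counting.

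Egr1, a zinc finger factor (chromosome 18, 34859823 to 34864984, + strand), went the same way. It was at 3348 (3307 to 3388), 1177 (1164 to 1190.3), 3046 (3014 to 3079) and 1704 (1687 to 1721) CPM in the order given above, with both injured libraries below both sham libraries. It was 2.84-fold (2.797 to 2.89) lower in injured wild-type microglia and 1.79-fold (1.76 to 1.81) lower under the knockout label. Thinned shares of microglia with an Egr1 UMI were 85.4%, 70.8%, 81.2% and 76.7%.

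Fos (chromosome 12, 85473890 to 85477273, + strand), the partner of Jun in AP-1, was at 3265 (3225 to 3305), 2921 (2900.1 to 2942), 3517 (3482 to 3552) and 2849.9 (2828 to 2872) CPM. Its ratio of injured to sham was 0.895 (0.882 to 0.907) and 0.8103 (0.8002 to 0.821), nearer to 1 than that of Jun. Within the same cells there were 1.43 Jun UMIs per Fos UMI in wild-type sham microglia and 0.556 in injured ones, and 1.32 and 0.798 under the knockout label. This ratio does not depend on how the libraries are scaled.

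Fosb (chromosome 7, 19302696 to 19310051, − strand), a relative of Fos, was at 943, 574, 868 and 607 CPM, 1.64-fold (1.599 to 1.69) and 1.43-fold (1.39 to 1.47) lower after injury. Junb (chromosome 8, 84974484 to 84978718, − strand), a relative of Jun whose place overlaps Prdx2 on the other strand, was at 3756, 2573, 3544 and 3172 CPM, with ratios of 0.685 (0.676 to 0.695) and 0.895 (0.884 to 0.906). Atf3 (chromosome 1, 191170296 to 191218039, − strand), which overlaps the small RNA gene Gm24748, was at 1309, 850.4, 1178 and 869 CPM, 1.54-fold (1.504 to 1.58) and 1.36-fold (1.33 to 1.39) lower. Both injured libraries were below both sham libraries for each of these 3 genes, by less than 2-fold.

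Egr2 and Egr3 did not share the fall of Egr1. Egr2 (chromosome 10, 67535475 to 67542188, + strand), also known for its part in myelination, was at 71.7 (65.9 to 77.8), 80.3 (76.9 to 83.8), 94.2 (88.6 to 100.1) and 89.2 (85.3 to 93.2) CPM, with ratios of injured to sham of 1.12 (1.02 to 1.23) and 0.947 (0.878 to 1.02). Egr3 (chromosome 14, 70077203 to 70082614, + strand) was at 65.8 (60.3 to 71.8), 60.7 (57.7 to 63.8), 75.5 (70.4 to 80.8) and 92.5 (88.5 to 96.6) CPM, with ratios of 0.922 (0.834 to 1.02) and 1.23 (1.13 to 1.33). The sham and injured libraries overlap in both genes. Thinned shares of cells with a UMI were 9.66%, 14.03%, 14.1% and 14.99% for Egr2 and 9.19%, 9.92%, 9.34% and 12.97% for Egr3.

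Nr4a1 (chromosome 15, 101254269 to 101274795, + strand), an orphan nuclear receptor, was at 283, 336, 263 and 277 CPM, with ratios of 1.19 (1.13 to 1.25) and 1.05 (1.01 to 1.101). Its relative Nr4a3 (chromosome 4, 48045153 to 48086447, + strand) was at 20.8 (17.8 to 24.3), 55.01 (52.2 to 57.9), 8.903 (7.23 to 10.8) and 24.5 (22.5 to 26.7) CPM. Each injured library was above the sham library of its own genotype label, by ratios of 2.64 (2.24 to 3.12) and 2.76 (2.22 to 3.45), and each knockout-labelled library was below its wild-type counterpart, 2.34-fold (1.81 to 3.04) for the sham libraries and 2.24-fold (2.03 to 2.48) for the injured ones. The wild-type sham and injured knockout-labelled levels overlap within counting error. Few cells carried it, with thinned shares of 3.58%, 8.11%, 0.973% and 4.71%.

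The changes were set against all genes by a fixed rule: 2-fold in log2 ratio with 10 CPM added to both levels, at least 20 CPM in 1 of the 2 libraries and at least 50 UMIs over the 4 libraries. All 10 genes were kept in each comparison. After injury in the wild type, 1 of the 10 was higher (Nr4a3, log2 ratio 1.08), where 4.19% of 6257 genes were, and 2 were lower (Jun, -1.52, and Egr1, -1.50), where 9.64% were. Under the knockout label 0 of the 10 were higher, where 2.62% of 6115 genes were, and 1 was lower (Jun, -1.03), where 1.54% were. Nr4a3 was then at 0.87 and Egr1 at -0.83. Median-of-ratios size factors moved the shares of all genes to 10.9% higher and 1.94% lower in the wild type and to 5.05% and 0.455% under the knockout label. The median log2 ratio of the 10 was -0.35 and -0.23, close to the -0.32 and -0.21 of all genes kept. Jun and Egr1 had 94 and 103 of the 6257 genes below them in the wild type, and 81 and 209 of 6115 under the knockout label.

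**Figure D2:**
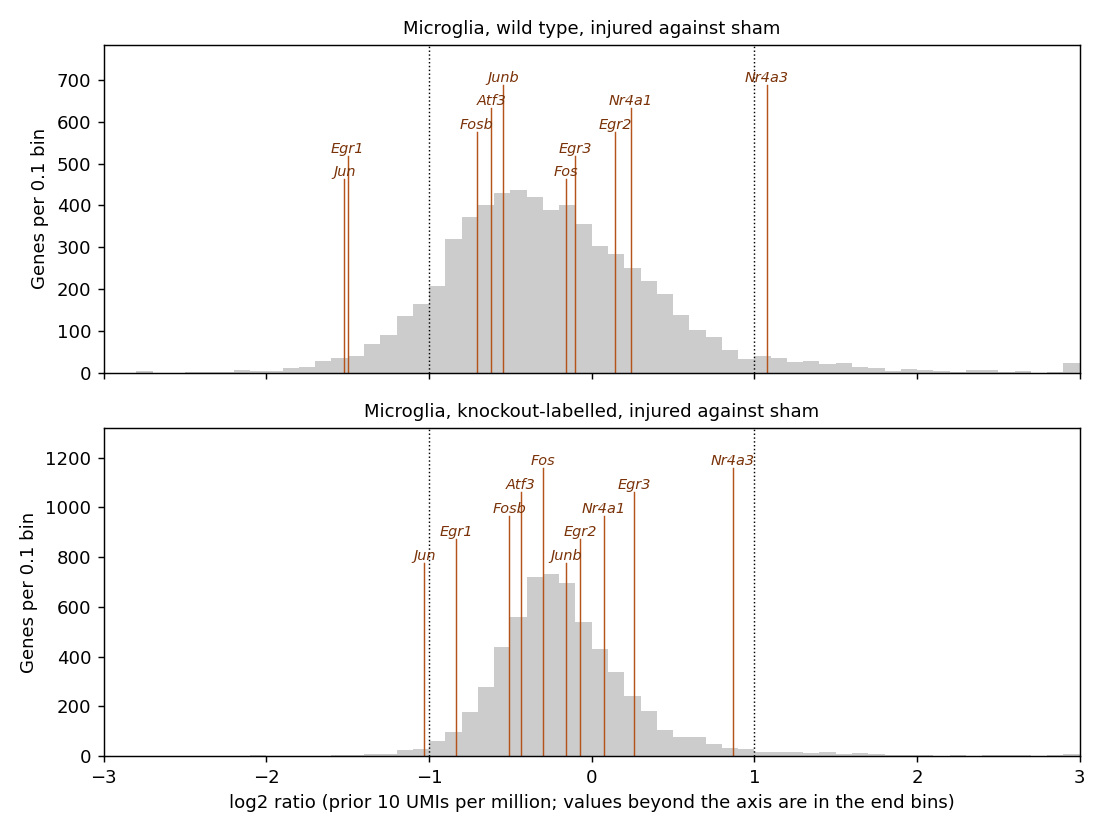
Distribution of log2 ratios of injured against sham microglia over all genes kept, with the 10 genes marked, for each genotype label. Jun and Egr1 lie at -1.52 and -1.50 in the wild type and at -1.03 and -0.83 under the knockout label, and Nr4a3 at 1.08 and 0.87.

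These counts depend on the scaling and on which cells count as microglia. Under the knockout label Jun lies just past 2-fold, and its log2 ratio ran from -1.05 to -0.66 over the alternatives tried, with 6 of them short of 2-fold. With median-of-ratios size factors in place of total UMIs, the median of all genes went from -0.32 to 0.20 in the wild type and from -0.21 to 0.11 under the knockout label. Jun was then at -0.96 and -0.66 and Egr1 at -0.94 and -0.47, so 0 of the 10 genes were 2-fold lower, and Nr4a3 was at 1.51 and 1.08. Fos changed sign, to 0.40 and 0.07, as did Junb, to 0.02 and 0.21, Egr3 in the wild type, to 0.39, and Egr2 under the knockout label, to 0.26. Fosb was at -0.15 and -0.14 and Atf3 at -0.06 and -0.07.

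Macrophage markers moved with the injured wild-type microglia, so a narrower class was taken after seeing the data: cells with a UMI of Siglech or Sall1 and none of Ms4a7. It held 677, 1493, 1102 and 1983 cells, with Lyz2 at 375, 1737, 314 and 1178 CPM. Jun was at 4779, 2149.9, 4668 and 2428 CPM there, with log2 ratios of -1.15 in the wild type and -0.94 under the knockout label, and Egr1 had -1.10 and -0.75. Jun and Egr1 still passed 2-fold in the wild type, Jun no longer did under the knockout label, and Nr4a3, at 0.99 and 0.90, no longer did in the wild type. The wild-type sham library stands apart, so the comparison was repeated, also after seeing the data, with the sham library of the knockout-labelled mouse as its control, and it gave the same counts of the 10 genes past 2-fold, with Jun at -1.51, Egr1 at -1.36 and Nr4a3 at 1.78.

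Between the genotype labels, 0 of the 10 genes passed 2-fold in microglia. After sham surgery 0.065% of 6150 genes were higher and 0.358% lower under the knockout label, and after injury 0.0736% of 5436 were higher and 0.92% lower. Nr4a3 came nearest, with a knockout to wild-type ratio of 0.427 (0.329 to 0.552) in the sham and 0.446 (0.403 to 0.492) in the injured libraries. With 10 CPM added its log2 ratios were -0.71 and -0.91, with 0.6504% and 1.18% of genes below it, and with 1 CPM added they were -1.14 and -1.13, past 2-fold. After sham surgery Jun was nearly level, at a ratio of 0.995 (0.982 to 1.01), Egr1 was at 0.91 (0.895 to 0.925) and Egr2 at 1.31 (1.19 to 1.46). After injury the ratio was 1.40 (1.38 to 1.42) for Jun, 1.45 (1.43 to 1.47) for Egr1, 1.52 (1.43 to 1.63) for Egr3 and 0.976 (0.965 to 0.986) for Fos. In the narrower microglia class the log2 ratio after injury went from 0.48 to 0.17 for Jun and from 0.53 to 0.19 for Egr1. The injury log2 ratios under the 2 labels differed by 0.49 for Jun and 0.67 for Egr1 (knockout label minus wild type), with 1 mouse behind each level and no test. Each library enters 2 of the 4 comparisons.

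Different clusters of cells held most of the sham and of the injured microglia, and Jun and Egr1 differed between clusters. Cells were clustered without the 10 genes, other early genes and heat-shock genes. Sham microglia were mostly in clusters C1 and C2, 25.6% and 43.6% in the wild type and 38.4% and 31.6% under the knockout label. After injury these held 6.14% and 2.34%, and 9.81% and 3.21%. The 4 clusters with at least 30 gated microglia in every library, C0, C1, C2 and the shallow C6, held 80.3%, 28.4%, 82.6% and 46.6% of gated microglia in the 4 libraries.

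Within C2, Jun was at 5419 and 4897 CPM in sham and injured wild-type cells and at 5934 and 5869.7 CPM under the knockout label. Within C0 it was at 4259 and 3835 CPM and at 4846 and 3983 CPM, and within C1 at 3481 and 3206 CPM and at 3657 and 2551 CPM. In each of these the injured level was lower, by less than over all microglia. In C2 under the knockout label the sham and injured intervals overlap, at 5867 to 6002 and 5667 to 6078 CPM. In the shallow C6 it was at 231 and 609 CPM in the wild type, higher after injury. Under the knockout label it was at 715 and 325 CPM there, more than 2-fold lower after injury. The mean of the shared clusters, each counted equally, was 3348, 3137, 3788 and 3182 CPM for Jun and 2329, 2056, 2461 and 2103 CPM for Egr1. In the microglia outside them, Jun was at 3813, 1253, 3220.1 and 1628 CPM and Egr1 at 2513, 922, 2091 and 1351 CPM.

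Clusters that held almost no sham cells had less Jun than C0, C1 and C2. In C8, led by the interferon-induced genes Ifit3, Cxcl10 and Ifit2, Jun was at 2059.7 CPM in the injured wild-type and 2170.04 CPM in the injured knockout-labelled library. In C3, led by Lpl, Ch25h and Cst7, it was at 1610.4 and 1617 CPM, and in C4, led by Ifi27l2a and Lag3, at 1494 and 1492 CPM. In C14, led by the cell division genes Birc5, Ube2c and Top2a, it was at 1059 and 1198 CPM, and in C7, led by Cd5l, Spp1 and Igf1, at 566 and 236 CPM. In C13, led by Il4i1, Ccl9 and Ccl6, Jun was at 1975 and 1873 CPM. C5, led by Lyz2, Gpnmb and Fabp5, was classed by its markers with the Lyz2/Ms4a7 macrophages. It held 4.22% of the injured wild-type gated microglia, with Jun at 901 CPM in them. The 2 injured libraries were close in C8, C3 and C4. C7 made up 15.4% of the injured wild-type microglia and 1.401% of the injured knockout-labelled ones. Fos did not order the clusters as Jun did: it was at 4088 and 3553 CPM in C8 and 3456 and 2786 CPM in C3, against 2553 and 2488 CPM in sham C1. The clusters come from the same cells and from genes that can vary with the 10, and Egr3 is among the 10 leading genes of C0, so these levels are a description.

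**Figure D3:**
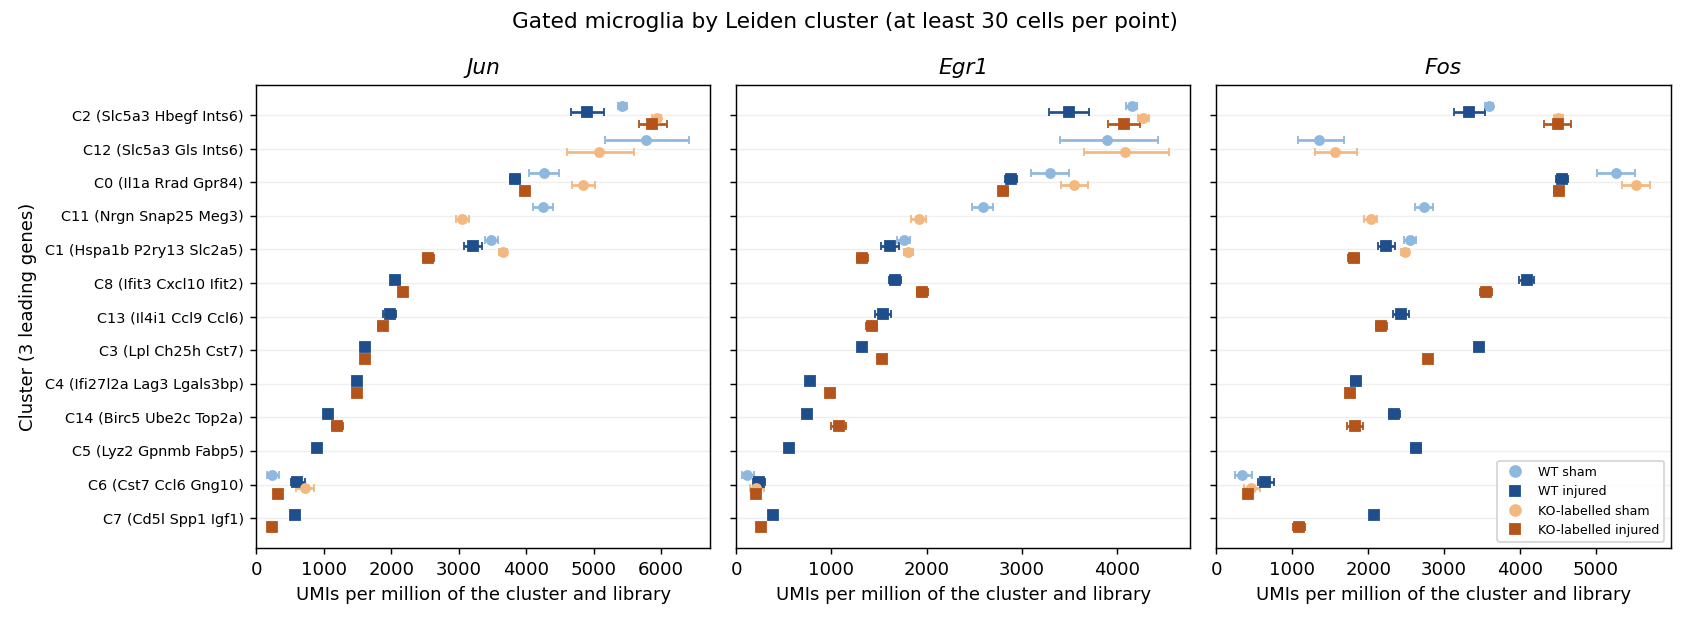
Levels in gated microglia by cluster and library, in CPM with exact Poisson 95% intervals, for clusters with at least 30 gated microglia in a library. In C0, C1 and C2 the injured Jun point lies below the sham point of its own genotype label, by most in C1 under the knockout label (3657 and 2551). In C2 under that label the intervals overlap. In C3, which has injured points only, the Jun points lie lower, at 1610.4 and 1617.

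Nr4a3 was highest in C3 and C8 of the injured wild-type library, at 87.2 and 80.3 CPM, and was at 26.7 and 50.6 CPM there under the knockout label. In C1 and C2 of the wild-type sham library it was at 15.2 and 18.05 CPM. Over the shared clusters, each counted equally, it was at 19.6, 14.4, 8.098 and 12.6 CPM. Under both genotype labels the sham and injured intervals overlap in each shared cluster. In C2 they were 14.4 to 22.3 and 1.95 to 27.6 CPM in the wild type. Under the knockout label they were 5.21 to 10.2 and 6.43 to 29.4 CPM there. Few UMIs lie behind some of these levels, so a change within clusters cannot be read from them under either label.

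Across cell classes, Jun and Egr1 were lower after injury in microglia but not in endothelial cells, and both were low in the macrophages with Lyz2 and Ms4a7.

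**Figure D4:**
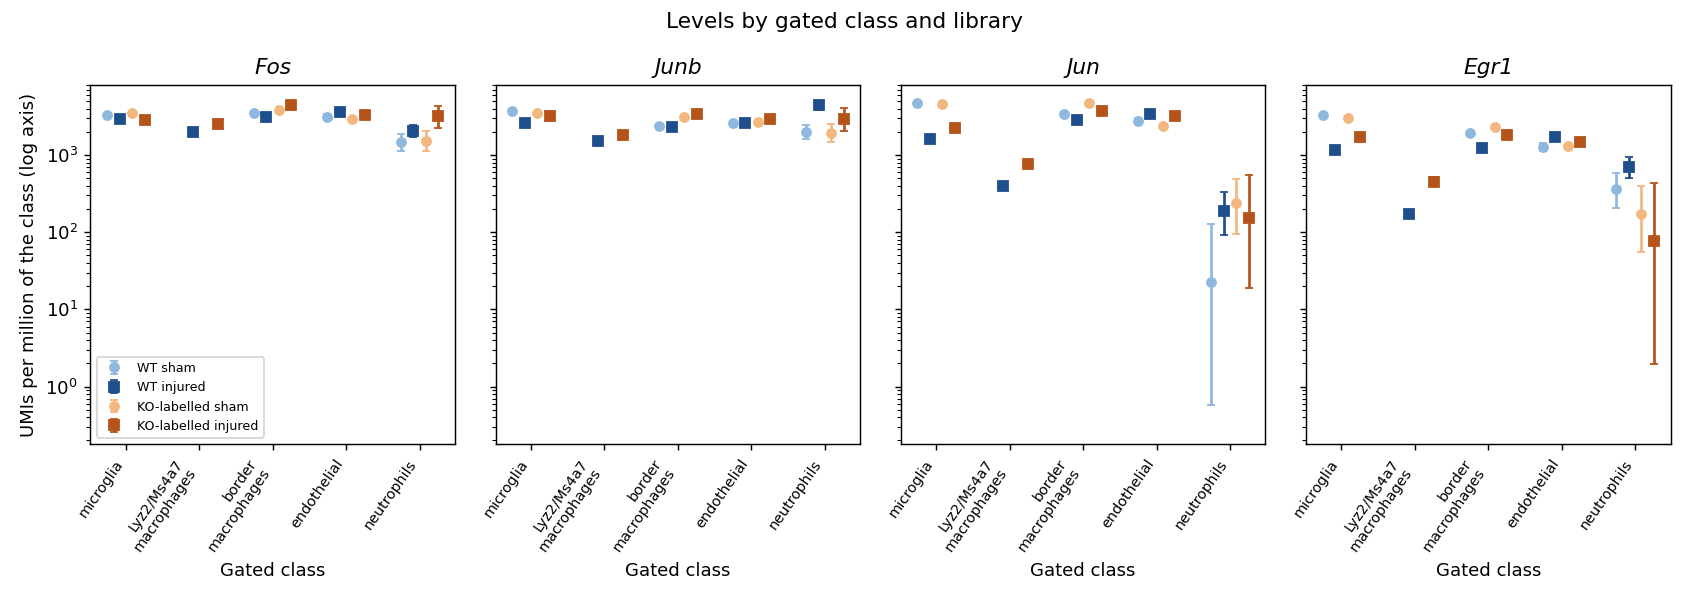
Levels by gated class and library, in CPM with exact Poisson 95% intervals. Jun in the macrophages with Lyz2 and Ms4a7 was at 397 and 766 in the injured libraries, and in endothelial cells at 2776 and 2366 in the sham and 3449.9 and 3173 in the injured libraries.

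In the macrophages with Lyz2 and Ms4a7, Jun was at 397 (380.4 to 414) CPM in the injured wild-type and 766 (685 to 854) CPM in the injured knockout-labelled library. This was 4.09-fold (3.92 to 4.27) and 2.97-fold (2.66 to 3.32) below microglia of the same library. Egr1 was at 174 (163 to 185) and 454 (392 to 522) CPM, 6.76-fold (6.34 to 7.21) and 3.76-fold (3.26 to 4.35) below microglia. Fos was nearer to microglia, at 1978 and 2536 CPM with ratios of 0.677 (0.664 to 0.691) and 0.8899 (0.837 to 0.945), and Jun UMIs per Fos UMI were 0.201 and 0.302. Nr4a3 was higher than in microglia, at 78.99 (71.8 to 86.7) and 42.3 (25.1 to 66.9) CPM with ratios of 1.44 (1.29 to 1.598) and 1.72 (1.01 to 2.75). Of these cells 41.1% and 36.1% lay within 1 marker of another class.

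Border macrophages had Jun at 3369.9 (3203 to 3544), 2862 (2689 to 3043), 4687 (4454 to 4928) and 3691 (3496 to 3893) CPM, 1.18-fold (1.09 to 1.28) and 1.27-fold (1.18 to 1.37) lower after injury, less than in microglia. Egr1 was at 1943, 1244, 2280.1 and 1836 CPM, 1.56-fold (1.39 to 1.76) and 1.24-fold (1.12 to 1.38) lower. These differences varied with the processing: over the alternatives the log2 ratio ran from -1.23 to -0.17 for Egr1 and -0.71 to 0.02 for Jun in the wild type, and from -0.44 to 0.32 and -0.60 to -0.07 under the knockout label. Without cells with 2 or more neuronal or glial markers (30, 43, 23 and 27 cells left) Egr1 was at -1.23 and 0.32, past 2-fold in the wild type and of the other sign under the knockout label. The knockout-labelled value also turned, to 0.02 with each cell weighted equally and 0.03 with the stricter cell filter, and Jun in the wild type to 0.02 with each cell weighted equally. Egr2 was higher in this class than in microglia of the same library in all 4 libraries, at 211 (171 to 258), 296 (243 to 358), 305 (248 to 372) and 310.1 (256 to 373) CPM, with ratios of 2.94, 3.69, 3.24 and 3.48. Nr4a3 was also higher there, at 126, 173, 86.4 and 102 CPM, with ratios of 6.07, 3.15, 9.704 and 4.14. The class was uneven, since 18.2%, 8%, 13.04% and 2.44% of its thinned cells had no UMI of any of the 10 genes, against 2.18%, 2.59%, 2.63% and 2.55% of microglia.

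Endothelial cells had Jun at 2776 (2560.4 to 3004), 3449.9 (3294 to 3611), 2366 (2236 to 2500.3) and 3173 (3044 to 3307) CPM, with ratios of injured to sham of 1.24 (1.13 to 1.36) and 1.34 (1.25 to 1.44), on the other side of 1 from microglia. Egr1 was at 1284, 1691, 1299 and 1476 CPM, with ratios of 1.32 (1.15 to 1.51) and 1.14 (1.03 to 1.25), and Fos at 3151, 3604, 2899.9 and 3346 CPM. Over the alternatives the log2 ratio of Jun ran from 0.24 to 0.88 in the wild type and 0.28 to 0.80 under the knockout label, that of Egr1 from 0.37 to 1.34 and 0.02 to 1.23, and that of Fos from 0.15 to 1.45 and -0.07 to 1.27. The highest values of Egr1 and Fos are past 2-fold. The highest wild-type values came without cells with 2 or more neuronal or glial markers (18 sham cells left), and the highest knockout-labelled ones of Egr1 and Fos with the stricter cell filter (9 sham cells left). Fos under the knockout label changed sign with each cell weighted equally. The 29 cells of the wild-type sham library limit this, as the cell with the most held 17.6% of the Jun UMIs and 32.7% of the Fos UMIs. Nr4a3 had 5, 12, 3 and 4 UMIs in this class.

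Within microglia the 10 genes varied together to unequal degrees. Across the cells of each library the 45 pairs of genes had a median Pearson r of 0.231, 0.294, 0.286 and 0.318. Jun with Egr1 had 0.704, 0.702, 0.684 and 0.725, and Jun with Fos 0.609, 0.5103, 0.615 and 0.617. Jun with Nr4a3 was near 0, at 0.0562, -0.0259, 0.0654 and -0.00178. The cells of a library share its depth and preparation, sparse genes have low r, and no p is given. The summed level of the 10 genes had an r with the log of the cell's UMIs of 0.382, -0.0151, 0.38 and 0.291.

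**Figure D5:**
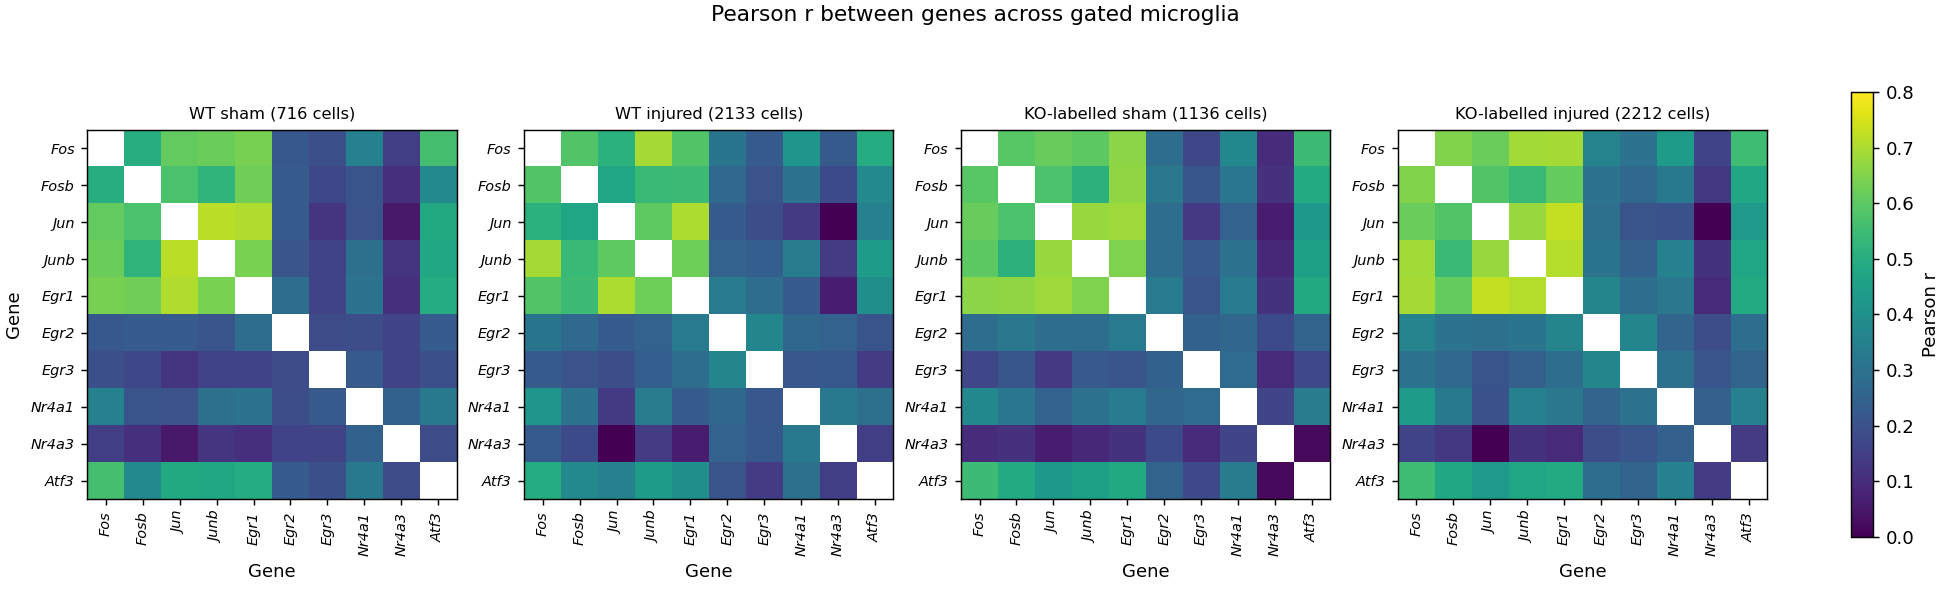
Pearson r between pairs of the 10 genes across gated microglia, in 1 panel per library. Jun with Egr1 is at 0.704, 0.702, 0.684 and 0.725, and Nr4a3 has low values with Jun, at 0.0562, -0.0259, 0.0654 and -0.00178.

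The 6 genes most like the sum of the 10, by the lowest r over the 4 libraries among 6663 genes found in at least 10% of microglia of each, were Zfp36 (0.745), Btg2 (0.739), Nfkbia (0.694), Ier5 (0.694), Jund (0.693) and Ier2 (0.641).

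Other genes of the pathway were counted by the same 2-fold rule after injury. Of all genes kept, 4.19% were higher and 9.64% lower in the wild type, and 2.62% and 1.54% under the knockout label. Of 10 further AP-1 and ATF-related genes 7 were kept, with 0 higher and 1 lower in the wild type and 0 and 0 under the knockout label. The one lower was Jund, a relative of Jun, at 2145 and 910.1 CPM in sham and injured wild-type microglia and at 2337 and 1380.3 CPM under the knockout label. Of 34 other early genes 31 were kept in the wild type, with 1 higher and 5 lower, and 29 under the knockout label, with 0 and 3. Nr4a2, a relative of Nr4a3, was the one higher, at 7.75 and 42.6 CPM in the wild type and 6.18 and 16.5 CPM under the knockout label, where it was not kept. Gadd45g, a stress-induced growth arrest gene, was at 108 and 33.5 CPM and at 93.1 and 26.6 CPM, more than 2-fold lower under both labels.

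Of 14 upstream factors and kinases 12 were kept, with 2 lower in the wild type, Mef2a at a log2 ratio of -1.56 and Rps6ka1 at -1.05, and 0 under the knockout label. The shares of all genes lower were 9.64% and 1.54%. Crem, which acts on cAMP response elements, was at 15.8 and 35.2 CPM and at 11.5 and 21.7 CPM, short of 2-fold on this scale. Of the 2 co-repressors of Egr proteins 0 passed 2-fold, and Nab2 was at 23.3 and 36.7 CPM and at 23.1 and 40.9 CPM. The medians of these lists, in the order given, were -0.59, -0.40, -0.80 and 0.27 in the wild type and -0.34, -0.21, -0.52 and 0.46 under the knockout label, beside -0.32 and -0.21 over all genes kept. Between the genotype labels 0 genes of these lists passed 2-fold.

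Some heat-shock genes, which are also known to respond to dissociation, were lower after injury, as Jun was. All 8 on the list were kept, and 5 were lower in injured wild-type microglia and 4 under the knockout label, with medians of -1.42 and -0.96. Of all genes kept, 9.64% and 1.54% were lower. The chaperone gene Hspa1a was at 544, 99.0, 668 and 121 CPM in microglia and its near copy Hspa1b at 144, 12.5, 186 and 11.5 CPM, and reads of the pair may have been split between them. Genes short of 2-fold included Hspa8, at 1723, 1525, 1507 and 1436 CPM, Hspd1, at 105, 93.96, 109 and 94.9 CPM, and Hspe1, whose level was above sham after injury under both labels, at 224, 312, 207 and 270.4 CPM. In border macrophages Hspa1a was at 861, 321, 608 and 417 CPM and in endothelial cells, where Jun was not lower after injury, at 1157, 1154, 742 and 1252 CPM. Within C2 the pair together was at 625, 302, 827 and 272 CPM. The part of dissociation in the levels of the 10 genes was not tested.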

How the data were processed

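Gene by barcode counts of 4 single-cell libraries were used as the authors deposited them: whole UMI counts per gene and barcode, with Cell Ranger 6.0.1 and mm10 named per the submitters' processing notes. The roles of the introns, of strand and of the cell calling in the counting are not given in the sources used here. Of 32285 gene identifiers, 32235 are in GENCODE vM21 (GRCm38), from which positions were taken. Barcodes with 500 or more genes, 1000 or more UMIs and no more than 10% of UMIs from mitochondrial genes were kept, and the highest Scrublet scores were removed at 0.8% per 1000 barcodes (35, 113, 30 and 89 cells). Deposited totals were 15222380, 40336067, 16218958 and 28560667 UMIs over 4425, 4731, 2682 and 4202 barcodes.

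A cell took the class with the largest share of its markers detected, with at least 3 needed, Lyz2 and Ms4a7 both needed for that macrophage class, and ties left without a class (77 marker genes in 12 lists). UMIs were summed per class and library and divided by all UMIs of the class. Shares were compared after thinning to 2000 UMIs. Clusters are Leiden clusters over 2000 variable genes, 30 principal components and 15 neighbours at resolution 1 (scanpy 1.11.5, leidenalg 0.10.2, with scipy 1.17.1, numpy 2.4.6 and pandas 2.3.3). The 2-fold rule and the ratio interval were tested on simulated Poisson counts, which lack the clumping of these genes. The other steps were not tested in this way. The 10 genes are all named, with the 6 genes most like their sum, and of the other lists those past 2-fold or of known role, the latter chosen after their values were seen. The members, gene lists and rules were chosen with earlier results of these data known. Alternatives covered scaling, cell filters, doublets, class definitions, denominators, thresholds and single cells with many UMIs.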

Additional observations from a re-analysis of the deposited data

Results flagged for a closer look

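Some ratios of injured to sham levels lay on opposite sides of 1 under the 2 genotype labels, each with an interval that leaves out 1. With 1 mouse per group these differences were not tested. In border macrophages Fos had a ratio of 0.894 in the wild type and 1.18 under the knockout label, and Atf3 0.7196 and 1.203. In endothelial cells Atf3 had 1.26 and 0.772. The directions depended on the processing. Over the alternatives the log2 ratio of Fos in border macrophages ran from -0.95 to 0.10 in the wild type and 0.02 to 0.37 under the knockout label, and that of Atf3 from -1.31 to 0.23 and -0.49 to 0.69. Atf3 in endothelial cells ran from -0.10 to 1.68 and -0.67 to 1.07. Fos in the wild type took another sign with each cell weighted equally (0.10) and with Leiden clusters in place of gates (0.05). Atf3 did so in border macrophages with the knockout-labelled sham library as the wild-type control (0.23) and, under the knockout label, without cells with 2 or more neuronal or glial markers (-0.49), and in endothelial cells with that control (-0.10) and with the stricter cell filter (1.07).

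Ratios also lay on opposite sides of 1 in 2 classes of the same libraries, which again was not tested. In the wild type, microglia and endothelial cells had 0.895 and 1.14 for Fos, 0.347 and 1.24 for Jun, 0.352 and 1.32 for Egr1, and 0.6496 and 1.26 for Atf3. Under the knockout label they had 0.8103 and 1.15 for Fos, 0.7001 and 1.15 for Fosb, 0.489 and 1.34 for Jun, 0.895 and 1.08 for Junb, 0.559 and 1.14 for Egr1, and 1.05 and 0.712 for Nr4a1. Microglia and border macrophages under the knockout label had 0.8103 and 1.18 for Fos, 0.895 and 1.096 for Junb, and 0.738 and 1.203 for Atf3. Values that took another sign in at least 1 alternative were Fos under both labels and Junb and Nr4a1 under the knockout label in microglia, Atf3 in the wild type and Fos, Fosb, Junb and Nr4a1 under the knockout label in endothelial cells, and Atf3 under the knockout label in border macrophages.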

How the results depend on the processing

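The counts of the 10 genes past 2-fold in microglia moved by more than 1.5 times as follows, each with the share of all genes kept under the same setting, and the cause was not tested. In the wild type after injury, 2 were lower, 0 with median-of-ratios size factors (1.94% of genes) and 4 at a 1.5-fold threshold (31.3%), and 1 was higher, 0 with the stricter cell filter (4.17%) and 0 in microglia with Siglech or Sall1 and without Ms4a7 (2.79%). Under the knockout label 1 was lower after injury, 2 at 1.5-fold (12.4%), and 0 with median-of-ratios factors (0.455%), with each cell weighted equally, with the looser or the stricter cell filter, without cells with 2 or more neuronal or glial markers, or in microglia with Siglech or Sall1 and without Ms4a7 (1.12% to 1.7% in these 5). There 0 were higher, 1 with median-of-ratios factors (5.05%), the stricter cell filter (2.77%), the 1.5-fold threshold (5.84%), or no filter on low values and 1 CPM added (2.69%). Between the labels 0 were lower after sham surgery, 1 at 1.5-fold (1.07%) or with no filter on low values (1.13%), and 0 after injury, 1 with median-of-ratios factors (1.2%), at 1.5-fold (2.28%), with no filter on low values (1.05%), or without the 1% of cells with the most of the gene, which was run for the 10 genes alone. Of 1246 single values under alternatives, 846 lay inside the counting interval of the main result, 400 did not, and 0 called values changed sign. For log2 ratios that interval was of the ratio without the added 10 CPM, so for low genes it does not measure the size of the move. The values of the 6 genes most like the sum had no interval and stand among the 400. The alternatives to the main steps numbered 15. Of 40 log2 ratios of the 10 genes in microglia, 13 took another sign in some alternative, as did 14 of 20 after injury in border macrophages and 12 of 20 in endothelial cells. No paired analysis was possible because each group is 1 library.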

Other observations

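Barcodes left out for more than 10% mitochondrial UMIs, but past the other filters, were gated as well and are given as values only. They numbered 1874, 570, 660 and 804 for the wild type (sham, then injury) and the knockout label (sham, then injury). Of these, 1311, 298, 216 and 392 were gated as microglia. Levels are per 1000000 UMIs that are not mitochondrial, over all these left-out barcodes of any class. Jun was at 2432, 2095, 3433 and 2249 in them, against 4906, 1694, 4867 and 2384 in the microglia analysed. Egr1 was at 1874, 1079, 3307 and 1685 against 3512, 1228, 3186 and 1787. The left-out barcodes are a mix of classes, so these differences are not within microglia. Jun over the left-out barcodes was lower than in analysed microglia in both sham libraries and not in the injured wild-type library.

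Dendritic cells of the injured wild-type library, 29 cells, had Jun at 353 CPM, Egr1 at 176, Junb at 2021 and Nr4a3 at 180.5 CPM.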
